A study of Mus musculus with 6 samples.

Results

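The enzymes that hydroxylate and crosslink collagen were examined in the mouse incisor, a tooth that grows throughout life. They were chosen by gene symbol: the prolyl 4-hydroxylase subunits P4ha1, P4ha2 and P4ha3, the lysyl hydroxylases Plod1 and Plod2, the collagen chaperone Serpinh1, and the lysyl oxidases Lox, Loxl1, Loxl2 and Loxl3. All 10 were among the 23718 genes listed, and 9 had a mean value high enough to be tested, P4ha3 being the exception. Mesenchymal stem cell (MSC) samples were cut by laser capture microdissection, which frees chosen cells from a frozen section, from Gli1-CreER;tdT mice, in which tamoxifen lets cells with an active Gli1 gene switch on a red reporter. Transit amplifying cell (TAC) samples, meant to hold the dividing progeny of the stem cells, were cut in the same way from Axin2-CreER;tdT mice, in which an active Axin2 gene drives the reporter. Mice of both groups were 1 month old and, by the methods of the study, were killed the day after tamoxifen. The strain was labelled C57BL/6, while the methods speak of a mixed background. There were 3 samples in each group. Both groups carried a tamoxifen-dependent Cre and the reporter, and the driver differed along with the cells that were cut.

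Collagen chains are modified inside the cell before they leave it. Prolyl 4-hydroxylases add hydroxyl groups to proline, which lets 3 chains hold together as a stable triple helix, and lysyl hydroxylases add them to lysine, which sets the kind of crosslink that can form later. Serpinh1, also called HSP47, binds the folded helix in the endoplasmic reticulum, and outside the cell the lysyl oxidases convert lysine to reactive aldehydes that join collagen and elastin molecules into fibres. Dentin, the hard tissue that odontoblasts lay down in the incisor, is built on such a type I collagen matrix.

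Replicate 3 of each group stood apart from replicates 1 and 2, and this bears on almost every value below. Estimated reads lay between 20203159 and 25567244 in the 4 libraries of replicates 1 and 2, but the third MSC library had 59793645 and the third TAC library 108156380. Of all listed genes, 6.889% to 8.361% had no reads in those 4, against 43.14% and 28.29% in the third MSC and TAC libraries. The part of the reads from protein coding genes was 68.61% to 72.57% in those 4 and 90.68% to 93.3% in the third ones. On the log2 scale the correlation across genes was 0.9801 between MSC replicates 1 and 2, and 0.6585 to 0.6601 between either of them and MSC replicate 3. Apart from P4ha3, each member had between 412 and 145130 estimated reads in every library. The members are therefore described over all 6 libraries and also in the same-numbered pairs of libraries.

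The captured tissue was checked with cell type markers, whose part in the results below was not tested. The proliferation marker Mki67 was at 41.5 to 136.9 in MSC and 122.0 to 629.7 in TAC, and of the 5 driver and cycling genes only Cdk1 rose in TAC past the adjusted threshold, the summed level being 465.5 to 506.5 in MSC and 657.1 to 1088 in TAC. The ranges of both drivers overlapped between the groups. Gli1 lay between 244.9 and 421.6 in MSC and between 141.0 and 395.9 in TAC, with log2 fold changes of -0.74, -0.79 and -0.09 in the same-numbered pairs, and Axin2 between 12.0 and 58.3 in MSC and 34.05 and 63.9 in TAC, with -0.04, 0.41 and 1.43. The 7 smooth muscle and pericyte markers summed to 830.5 to 1489 in MSC and 88.6 to 126.2 in TAC, and 5 of them, Acta2 included, fell in TAC past the adjusted threshold (0.422% of all genes passed). With voom, 0 genes of this list and 0 of the driver and cycling list passed it. Without MSC replicate 1 or 2, or without TAC replicate 1 or 2, 0 of all genes tested passed it. The 6 endothelial markers summed to 146.8 to 230.2 in MSC and 69.7 to 87.5 in TAC. Odontoblast markers (5 of 6 tested) summed to 5175 and 5036 in MSC replicates 1 and 2 but to 653.8 in MSC replicate 3, and to between 3399 and 4696 in TAC. Dental epithelium markers (7 genes) summed to 3657 and 3595 in MSC replicates 1 and 2, to 299.7 in MSC replicate 3 and to between 2144 and 3337 in TAC. The enamel matrix gene Amelx made up most of the sum in replicates 1 and 2 of both groups (2503 in MSC replicate 1) but not in replicate 3, where it was at 80.6 in MSC. All 7 had log2 fold changes above 0, and Krt5, Krt14, Epcam and Cdh1 were higher in every TAC than in every MSC library, Epcam past the unadjusted threshold (12.3% of all genes were higher in every TAC library). Epcam and Cdh1 had 0 reads in MSC replicate 3, whereas Krt5 and Krt14 were highest there among the MSC libraries. The 8 dental mesenchyme markers summed to 1010 to 1142 in MSC and 851.2 to 996.4 in TAC, but 5 of them did not overlap between the groups (24.5% of all genes did not), Msx1, Msx2 and Dlx5 being higher in TAC and Vim and Pax9 higher in MSC. Osteoblast markers (5 genes) summed to 466.0 to 808.2 in MSC and 625.8 to 1435 in TAC, dental follicle markers (4 of 5 tested) to 104.1 to 137.0 and 82.5 to 101.0, macrophage and leukocyte markers (6 genes) to 72.3 to 157.0 and 38.9 to 88.9, and Schwann cell markers (4 of 5 tested) to 20.2 to 43.2 and 6.09 to 19.2. None of the genes in these last 4 lists, nor in the mesenchyme, endothelial, odontoblast and epithelium lists, passed the adjusted threshold. In such bulk tissue, fewer cells of a type and less RNA in each cell cannot be told apart.

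No member passed the adjusted threshold in the comparison of TAC with MSC over all 6 libraries (0 of 9 in limma and 0 in its voom variant, against 0.422% of the 15391 genes tested in limma). At an unadjusted p under the threshold there was 1, Plod2, against 11.9% of all genes, and voom, run on the estimated reads, gave 3 (Plod2, Serpinh1 and P4ha1), against 23.2% of all genes with voom. The values of the groups did not overlap for 2 of the 9, Plod2 and Serpinh1, both higher in TAC, against 24.5% of all genes not overlapping in either direction. Of the 9, 5 had a log2 fold change above 0, against 51.5% of all genes, and the median was 0.45, beside 0.03 over all genes tested. Fold changes here are TAC minus MSC on the log2(value + 1) scale, so a positive value is a higher level in TAC.

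**Figure D1:**
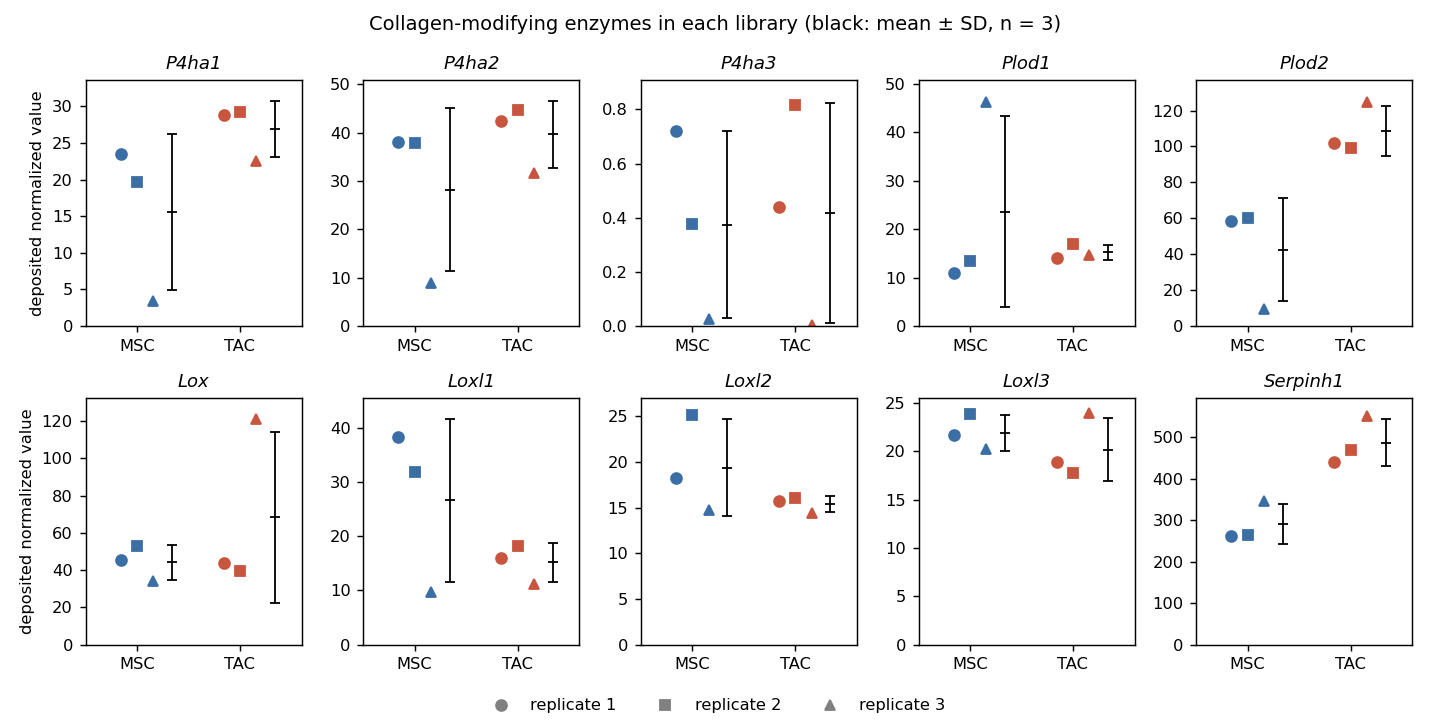
Deposited normalized value of each of the 10 genes in the MSC (blue) and TAC (red) libraries, with 1 symbol per replicate and a black bar for the mean ± SD of 3 libraries. Plod2 and Serpinh1 had no overlap between the groups, and the triangle of MSC replicate 3 lay far from the other MSC libraries for P4ha1, P4ha2, Plod1, Plod2 and Loxl1.

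P4ha1 encodes a catalytic subunit of prolyl 4-hydroxylase (chr10:59323296-59373305, plus strand, mm10). In the order of replicates 1, 2 and 3, which all values below keep, it was at 23.4, 19.7 and 3.42 in MSC and at 28.9, 29.3 and 22.6 in TAC. Within each pair of the same number TAC was the higher, but TAC replicate 3 lay below MSC replicate 1, so the groups overlapped. The log2 fold change was 1.08 ± 0.65 (SE), with an adjusted p of 0.580. It was 0.29 and 0.55 in pairs 1 and 2 and 2.41 in pair 3. Without MSC replicate 3 the difference over the remaining libraries was 0.30. With 1 library a group in pair 3, whether its change differs from that of the other pairs was not tested for any gene.

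P4ha2, the second catalytic subunit (chr11:54100095-54131666, plus strand), had values of 38.1, 37.8 and 8.88 in the MSC libraries and 42.5, 44.7 and 31.7 in the TAC libraries. It showed the same order as P4ha1, with MSC replicate 3 the lowest library and TAC higher in each pair. Over all libraries the difference was 0.71 ± 0.56 on the log2 scale (SE; adjusted p = 0.689), made up of 0.16, 0.24 and 1.73 in the 3 pairs. Without MSC replicate 3 it was 0.05. P4ha3 (chr7:100285520-100319700, plus strand) was barely detected. Its estimated reads were 26, 12 and 3 in MSC and 19, 33 and 0 in TAC, and a count of 0 in TAC replicate 3 allows up to 3 reads, a value of 0.0152. No fold change is given for it.

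Within the family, P4ha1 and P4ha2 together held nearly all estimated reads per exonic kilobase. P4ha1 took 47.4%, 43.8% and 36.8% of the family in MSC and 50.3%, 48.9% and 51.9% in TAC, and P4ha2 took 50.8%, 55.2% and 63.0% in MSC and 48.8%, 49.3% and 48.1% in TAC. A share within a library does not depend on how the libraries were scaled. Neither gene's shares overlapped between the groups, P4ha1 being the higher in TAC by 7.75 percentage points (4.81 without MSC replicate 3), but the exact permutation test gave p = 0.1 (two-sided, 0.275 after adjustment over 11 shares), the smallest that 3 against 3 allows. P4hb, protein disulfide isomerase, is the second subunit of the same enzyme. Its values were 103.5, 110.4 and 178.6 in MSC and 207.6, 208.9 and 219.9 in TAC, with no overlap, and the difference of 0.74 ± 0.31 (SE) on the log2 scale had an adjusted p of 0.412 (1.00, 0.91 and 0.30 in the pairs).

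**Figure D2:**
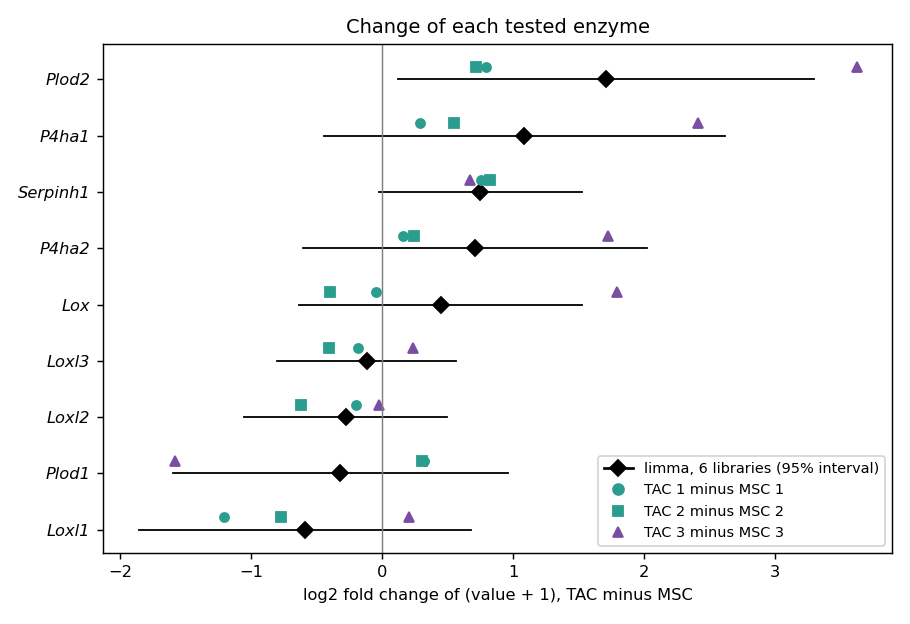
Log2 fold change of (value + 1), TAC minus MSC, for the 9 genes tested, where diamonds with lines are the limma estimate and its 95% interval over 6 libraries and the other symbols are the same-numbered pairs. The 3 pairs lay close together for Serpinh1 (0.67 to 0.82), while pair 3 lay apart from pairs 1 and 2 for Plod2, P4ha1, P4ha2, Lox and Plod1.

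Plod2 encodes the lysyl hydroxylase that acts on the ends of the collagen chain, the telopeptides (chr9:92542223-92608429, plus strand). It was at 58.5, 60.1 and 9.22 in MSC and at 101.8, 99.2 and 124.8 in TAC. Every TAC library exceeded every MSC library, and MSC replicate 3 was the lowest by far. The log2 fold change was 1.71 ± 0.68 (SE; 95% interval 0.12 to 3.30; limma unadjusted p = 0.0384, adjusted p = 0.383). It passed the unadjusted threshold without any 1 of the MSC libraries (0.85 without MSC replicate 3) but not without TAC replicate 1, 2 or 3, the limma fit giving an unadjusted p of 0.0654, 0.0633 and 0.117. In pairs 1, 2 and 3 the log2 fold change was 0.79, 0.71 and 3.62. The fit on replicates 1 and 2 alone gave 0.75 ± 0.06 (SE; adjusted p = 1.80e-05), where 44.2% of all genes passed the adjusted threshold. The direction was the same in all 3 pairs. A gene on the opposite strand, Gm38391, overlaps Plod2, and since the use of strand in counting was not stated, reads of the 2 cannot be told apart.

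Plod1 encodes the lysyl hydroxylase that acts on the helical part of collagen (chr4:147909753-147936768, minus strand). Its values were 11.01, 13.5 and 46.3 in MSC and 13.9, 16.9 and 14.7 in TAC. MSC replicate 3 was the highest of the 6 libraries, the opposite of its place for Plod2, and the remaining 5 lay between 11.01 and 16.9. The log2 fold change was -0.32 ± 0.55 (SE; adjusted p = 0.886) over all libraries, 0.32 and 0.30 in pairs 1 and 2, and -1.59 in pair 3. Without MSC replicate 3 it turned to 0.29. Plod3, the third lysyl hydroxylase, which also adds sugars to hydroxylysine, had values of 22.1, 28.2 and 47.7 in MSC and 23.7, 19.3 and 23.4 in TAC, a log2 difference of -0.47 (adjusted p = 0.670) that was 0.10, -0.52 and -0.99 in the pairs. The Plod3 difference was -0.17 without MSC replicate 3.

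Plod2 held the largest share of the lysyl hydroxylase family in every library but MSC replicate 3. It took 72.1%, 73.1% and 75.9% of the family's reads per exonic kilobase in the TAC libraries. Among the MSC libraries its share was 62.5%, 57.5% and 8.95%, so that every MSC library lay below every TAC library. Plod3 held 28.2%, 32.2% and 55.2% in MSC and 20.04%, 17.0% and 17.0% in TAC, again without overlap, and Plod1 held 9.35%, 10.3% and 35.8% in MSC and 7.86%, 9.90% and 7.14% in TAC, with overlap. The exact permutation test of the share gave p = 0.1 for Plod2 and for Plod3 (0.275 adjusted over 11 shares for each) and 0.2 for Plod1 (0.440 adjusted). The difference in the Plod2 share was 30.7 percentage points over all libraries and 13.7 without MSC replicate 3, and that of Plod3 was -20.5 and -12.2.

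**Figure D3:**
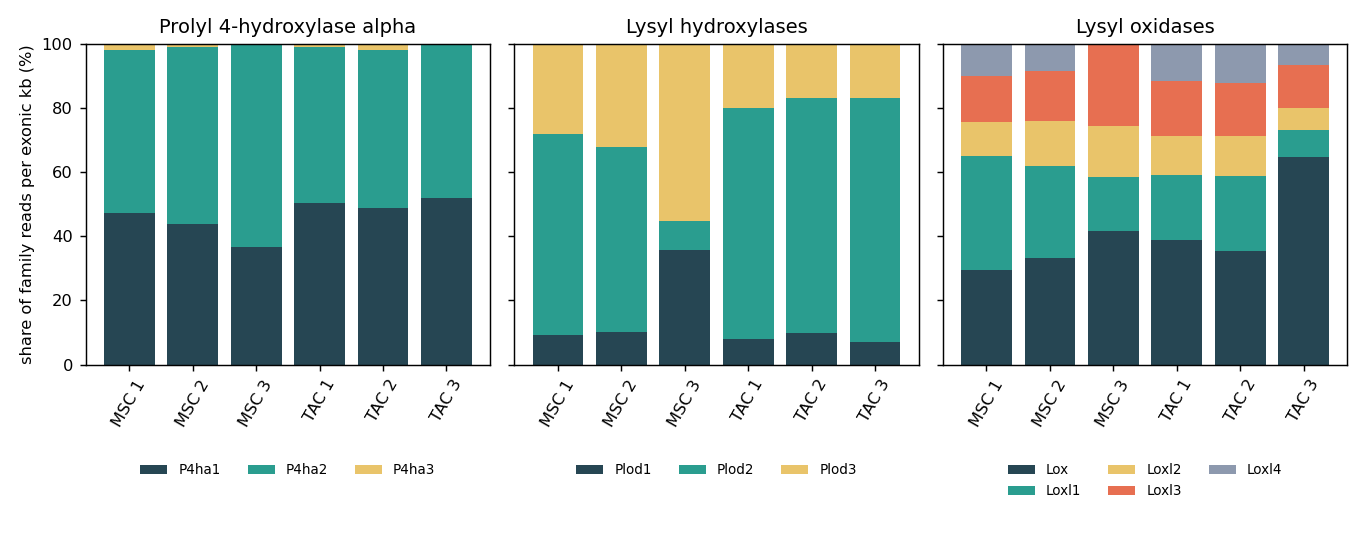
Share (%) of each gene in the estimated reads per exonic kilobase of its family, as stacked bars, in each of the 6 libraries. Plod2 makes up 72.1% to 75.9% of the lysyl hydroxylases in TAC and 8.95% in MSC replicate 3, and Lox reaches 64.6% of the lysyl oxidases in TAC replicate 3.

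Serpinh1, the collagen-specific chaperone (chr7:99345376-99353240, minus strand), had the change that varied least between pairs among the 9 genes tested. Its values were 260.9, 265.1 and 346.4 in MSC and 441.2, 469.9 and 550.2 in TAC. Every TAC library lay above every MSC library, and the ratio of TAC to MSC was 1.69, 1.77 and 1.59 in pairs 1, 2 and 3. Over all libraries the log2 fold change was 0.75 ± 0.33 (SE; 95% interval -0.03 to 1.52; adjusted p = 0.438). The replicate block, which compares libraries of the same number, gave the same estimate with an SE of 0.10 and an adjusted p of 0.0526, still short of the threshold, which 1.49% of all genes passed. Serpinh1 passed when replicate 3 against replicates 1 and 2 entered the fit as a batch term (adjusted p = 0.00546, with 11.8% of all genes past the threshold) and in replicates 1 and 2 alone (0.79 ± 0.04, SE; adjusted p = 1.49e-06, with 44.2% of all genes past it). No label names a batch, and this split was drawn from how the libraries differed in these data.

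Promoters are shown for Serpinh1, whose groups did not overlap, and for P4ha1, as a prolyl 4-hydroxylase gene known as a target of the hypoxia-inducible factors. The RefSeq table (GRCm38.p6, the build also called mm10) held a promoter for 5 of the 10 genes, and the 250 bases before the start are printed 5′ to 3′ on the gene's strand, with capitals for matches, on either strand, to ACGTG or GCGTG, the cores of hypoxia response elements. The motifs differ in their first letter. ACGTG occurs in 16.6% and GCGTG in 28.2% of all 32851 promoters of that length. Both motifs contain CG, and the printed promoters are rich in G and C, with 63.6% for Serpinh1 and 69.6% for P4ha1. The median over all promoters was 52.4%, and the part of base content in the matches was not tested. Serpinh1 (chr7:99353240-99353489, minus strand) held 1 ACGTG and no GCGTG, and P4ha1 (chr10:59323046-59323295, plus strand) held 1 ACGTG and 2 GCGTG. Of the genes not printed, P4ha2 held 1 ACGTG and 2 GCGTG in the table's window, P4ha3 held 0 of either, and Plod1 held 0 and 1. Outside the 10 genes, P4hb, the partner subunit of prolyl 4-hydroxylase, held 1 and 1, and the lysyl hydroxylase Plod3 held 1 and 3. These matches describe the letters and were not measured as binding sites.
Serpinh1: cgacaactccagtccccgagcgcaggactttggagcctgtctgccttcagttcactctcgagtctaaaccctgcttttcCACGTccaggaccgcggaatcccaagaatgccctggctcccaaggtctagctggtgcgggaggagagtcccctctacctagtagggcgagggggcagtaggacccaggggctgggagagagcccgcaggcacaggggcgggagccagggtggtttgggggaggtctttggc
P4ha1: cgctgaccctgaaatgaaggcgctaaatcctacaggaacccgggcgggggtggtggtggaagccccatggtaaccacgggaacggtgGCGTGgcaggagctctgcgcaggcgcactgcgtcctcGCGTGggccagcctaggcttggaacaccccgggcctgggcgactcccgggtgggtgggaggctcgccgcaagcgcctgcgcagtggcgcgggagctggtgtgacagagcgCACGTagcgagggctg

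Lox, the founding lysyl oxidase, lies on chromosome 18 (chr18:52516069-52529868, minus strand). Its values were 45.6, 52.8 and 34.2 in MSC and 44.0, 39.7 and 121.1 in TAC. The high TAC value came from replicate 3 alone, while in replicates 1 and 2 both TAC libraries lay below both MSC libraries. The difference was 0.45 ± 0.46 on the log2 scale (SE; adjusted p = 0.768) over all libraries and -0.06 without TAC replicate 3. It was -0.05 and -0.40 in pairs 1 and 2 and 1.79 in pair 3. An antisense gene, AC161119.1, overlaps Lox.

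Loxl1 is the lysyl oxidase best known for elastic fibre assembly (chr9:58287738-58313187, minus strand). It was at 38.3, 31.9 and 9.62 in MSC and 15.98, 18.2 and 11.2 in TAC. In replicates 1 and 2 the MSC libraries were the higher, by ratios of 2.40 and 1.75, but MSC replicate 3 was the lowest of all 6. On the log2 scale it differed by -0.59 ± 0.54 (SE; adjusted p = 0.725) over all libraries, -0.99 ± 0.13 (SE; adjusted p = 0.000275) in replicates 1 and 2, and 0.21 in pair 3. It was -1.18 without MSC replicate 3 and -0.24 without MSC replicate 1. With replicates 1 and 2 only, 44.2% of all genes passed the adjusted threshold.

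Loxl2, which also crosslinks basement membrane collagen (chr14:69609068-69695835, plus strand), had log2 fold changes of -0.20, -0.62 and -0.03 in pairs 1, 2 and 3, the last a near tie. Its values of 18.2, 25.1 and 14.7 in MSC and 15.7, 16.03 and 14.4 in TAC overlapped, and TAC differed by -0.28 ± 0.33 on the log2 scale (SE; adjusted p = 0.808), or -0.45 without MSC replicate 3 and -0.085 without MSC replicate 2. Loxl3 (chr6:83034173-83052563, plus strand) had the log2 fold change nearest to 0, with values of 21.7, 23.8 and 20.2 in MSC and 18.9, 17.7 and 23.9 in TAC. On the log2 scale the difference was -0.12 ± 0.29 (SE; 95% interval -0.81 to 0.56; adjusted p = 0.927), with -0.19 and -0.41 in pairs 1 and 2 and 0.23 in pair 3. It was -0.037 without TAC replicate 2 and -0.24 without TAC replicate 3. Loxl2 overlaps the antisense genes Gm27177 and Gm37513, Loxl3 overlaps the antisense gene Htra2, and a microRNA gene overlaps each of the 2. Loxl4, the remaining lysyl oxidase, was at 13.6 and 11.9 in MSC replicates 1 and 2 and between 10.98 and 12.2 in TAC, but had 0 reads in MSC replicate 3, which allows a value of up to 0.0266.

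Within the lysyl oxidase family the 5 genes shared the reads more broadly. Lox took 29.4%, 33.1% and 41.7% of the reads per exonic kilobase in MSC and 38.7%, 35.3% and 64.6% in TAC, and Loxl1 took 35.8%, 29.0% and 17.0% in MSC and 20.4%, 23.5% and 8.70% in TAC. Loxl1 held the largest share in MSC replicate 1, and Lox in the other 5 libraries. Loxl2 held 6.81% to 15.8% and Loxl3 13.2% to 25.5% over the 6 libraries. All 5 shares overlapped between the groups, and the exact permutation p lay between 0.3 and 0.7.

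The 4 genes with a higher value in TAC in each of the 3 pairs were P4ha1, P4ha2, Plod2 and Serpinh1 (24.6% of all genes tested had that order). Loxl2 was the one lower in all pairs, by very little in pair 3. Plod1, Lox, Loxl1 and Loxl3 had opposite directions in replicates 1 and 2 and in replicate 3, as did 38.8% of all genes. MSC replicate 3 was the lowest library for 5 of the 9, P4ha1, P4ha2, Plod2, Lox and Loxl1, and the highest for Plod1, beside 38.8% and 25.4% of all genes. In replicates 1 and 2 alone 4 of the 9 passed the adjusted threshold, Plod2, Serpinh1 and P4ha1 higher in TAC and Loxl1 higher in MSC, but 44.2% of all genes did so in these closely alike libraries.

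Compared per exonic kilobase, Serpinh1 was the most abundant of the 10 members in both groups, with a mean level per kilobase of 119.0 ± 19.7 (SD, n = 3) in MSC and 199.4 ± 23.1 in TAC. Its lowest library exceeded the highest of any other member in each group. In MSC it was followed by Lox at 9.25 ± 1.96, Loxl1 at 8.07 ± 4.56 and Plod2 at 7.90 ± 5.36, whose ranges overlapped, and then by Loxl3, P4ha2, P4ha1, Loxl2 and Plod1 at 4.76 to 3.49, each overlapping its neighbour. In TAC Plod2 stood next at 20.1 ± 2.62 and overlapped with Lox at 14.3 ± 9.59, which did not overlap with P4ha1 at 6.54 ± 0.914. P4ha1, P4ha2, Loxl1 and Loxl3 overlapped in turn, Loxl2 and Plod1 each lay apart below them at 2.85 ± 0.157 and 2.25 ± 0.224, and P4ha3 came last in both groups.

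Partner and substrate genes were examined in 4 lists and other hypoxia-inducible genes in 1, together 55 genes, of which 50 could be tested. In the comparison over all 6 libraries 1 of the 50 passed the adjusted threshold (0.422% of all genes). At the unadjusted threshold 4 were higher in TAC (5.42% of all genes) and 5 higher in MSC (6.43%). The one adjusted call was Eln, which encodes elastin, a substrate of the lysyl oxidases. Its values were 90.9, 91.9 and 59.5 in MSC and 18.2, 14.9 and 10.1 in TAC, so it fell by 2.42 ± 0.33 (SE) on the log2 scale in TAC (adjusted p = 0.0413), and by 2.26, 2.55 and 2.44 in the 3 pairs. The call was lost without MSC replicate 1 or 2 and without TAC replicate 1, 2 or 3 (adjusted p = 0.251, 0.242, 0.186, 0.210 and 0.0880). The smooth muscle and pericyte markers, which moved in the same direction, were described above, and their part in the elastin difference was not tested.

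Of the 9 lysyl oxidase partners and crosslink modifiers, 4 passed the unadjusted threshold (11.9% of all genes), and the same 4 had groups that did not overlap (24.5% of all genes). Eln, Fbln5, an elastic fibre protein, and Fmod, a collagen-binding proteoglycan, were higher in MSC, and Dcn, the proteoglycan decorin, was higher in TAC. Fbln5 was at 35.4, 35.3 and 69.5 in MSC and 9.70, 8.61 and 9.66 in TAC (log2 fold change -2.14, adjusted p = 0.0768). The log2 fold change was -0.66 for Fmod (adjusted p = 0.370) and 1.09 for Dcn (adjusted p = 0.254). The median over the 9 was -0.03, with 4 above 0.

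All 15 partners in hydroxylation, glycosylation and folding were tested. Of these 1 passed the unadjusted threshold, P4hb, against 11.9% of all genes, and with voom 2 did (P4hb and P3h2, against 23.2%). There were 11 log2 fold changes above 0 (51.5% of all genes), a median of 0.16, and 3 genes without overlap, P4hb, P3h2 and Fkbp10, all higher in TAC (12.3% of all genes). The prolyl 3-hydroxylase P3h2 was at 7.99 and 7.35 in MSC replicates 1 and 2, was listed at 0 reads in MSC replicate 3, and was at 12.7 to 15.7 in TAC. The list of procollagen trimming enzymes had 7 of 8 genes tested and a median of -0.05 (-0.39 in replicates 1 and 2 and 0.63 in replicate 3). In it Pcolce, the enhancer of C-propeptide removal, was at 57.6, 61.7 and 39.6 in MSC and 108.5, 109.1 and 171.8 in TAC (log2 fold change 1.27, adjusted p = 0.179), and Adamts14, an N-propeptidase, was higher in MSC (-1.20, adjusted p = 0.346). Both passed the unadjusted threshold with no overlap between the groups, as 2 of the 7. Of all genes 11.9% passed that threshold and 24.5% had groups that did not overlap. Among other hypoxia-inducible genes, of which 8 of 12 could be tested, 2 passed the unadjusted threshold: the glycolytic enzyme Pgk1 was higher in TAC (1.64, adjusted p = 0.180) and Ndrg1 higher in MSC (-0.61, adjusted p = 0.398). The median of the 8 was 0.19 over all libraries, -0.42 in replicates 1 and 2 and 0.67 in replicate 3.

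The fibrillar collagens, the substrates of the enzymes, had 0 of 11 genes past the adjusted and 0 past the unadjusted threshold in limma (0 and 1, Col5a3, with voom), against 0.422% and 11.9% of all genes in limma and 23.2% unadjusted with voom, and a median log2 fold change of 0.49. Their summed level was 12482 and 12612 in MSC replicates 1 and 2, 2870 in MSC replicate 3, and 9766 to 14285 in TAC. Col1a1, the main chain of type I collagen, was at 9568, 9609 and 1554 in MSC and at 11167, 11125 and 8030 in TAC (log2 fold change 0.93 ± 1.51, SE; adjusted p = 0.879). In pairs 1, 2 and 3 it differed by 0.22, 0.21 and 2.37 on the log2 scale, and by 0.06 without MSC replicate 3. Col1a2, the second chain, was at 731.3, 792.5 and 409.6 in MSC and 1052, 1087 and 460.3 in TAC (0.38 ± 0.54, SE; adjusted p = 0.852), and its log2 fold change was 0.085 without MSC replicate 3 and 0.79 without TAC replicate 3. The library low in Plod2, P4ha1 and P4ha2 was also the one lowest in Col1a1 and in the odontoblast sum, most of which was Dspp (476.1 there and 4909 and 4763 in the other MSC libraries), but its Serpinh1 value was the highest of the MSC group. Of the other odontoblast markers tested, Phex, Nes and Dmp1 were also lowest in that library among the MSC libraries, and Sp7 was highest.

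**Figure D4:**
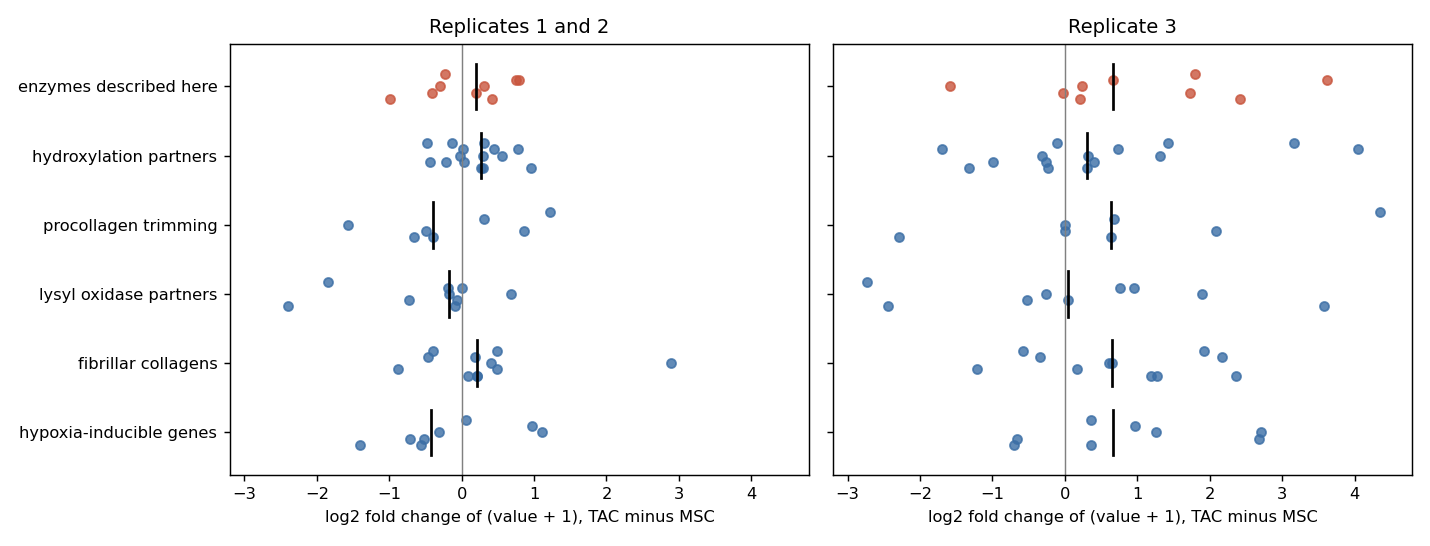
Log2 fold change of (value + 1), TAC minus MSC, of the enzymes (red) and of the 5 lists of related genes (blue), each point 1 tested gene and each black line the list's median, in replicates 1 and 2 (left) and in replicate 3 (right). The enzymes spread from -0.99 to 0.79 with a median of 0.20 in replicates 1 and 2, and from -1.59 to 3.62 with a median of 0.67 in replicate 3.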

How the data were processed

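RNA from 6 laser-captured incisor samples (3 MSC, 3 TAC) was sequenced as single-end reads. Per the labels and methods, the authors trimmed the reads and aligned them to mm10 with TopHat2 2.0.8, and CASAVA 1.8.2 and Partek are also named. The methods give RPKM, but the deposited values give each read equal weight whatever the gene's length, so the values were treated as a normalized signal that the authors deposited as an estimated read number plus 1 divided by a size factor for the library. Values therefore compare libraries within a gene, and were divided by exonic length (GENCODE M21) to compare genes. Reads were recovered as the value over the library's lowest value, minus 1. Of values under 50 reads, 75.62% to 94.66% per library came out whole (tolerance 0.02), so no count model was used. Of the symbols, 94.62% were found in GENCODE M21, and coordinates are the table's own.

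The test planned for RPKM also suits this unit. limma 3.58.1 (R 4.3.3) was fitted with a variance trend to log2(value + 1) of 15391 genes (mean value 1 or more), TAC minus MSC, two-sided, with Benjamini-Hochberg adjustment over all genes and a threshold of 0.05. The pseudocount understates changes of low genes. The voom alternative used the recovered reads. Paralog shares were compared by the exact permutation test over samples. On simulated data with known changes the fit was checked before use. Members and gene lists were chosen with earlier results of these data known. Genes named outside the 10 are paralogs, the P4hb subunit, type I collagen, marker genes, and list members past a threshold (limma or voom) without overlap. Fkbp10 is named for its lack of overlap alone, and genes that overlap a member are named with it.

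Replicates of the same number deviated together (correlations of deviations from group means 0.4765, 0.4655 and 0.5171), which meets the condition for pairing, but replicates 1 and 2 crossed gave 0.4616 and 0.4804, so the shared deviation was that of replicate 3. The methods speak of 3 pairs of samples in sequencing, without saying what made a pair. Replicates 1 and 2 of a group differed beyond counting noise (mean chi-square per gene 10.48 in MSC and 8.586 in TAC). The methods name 3 mice per group without saying that each sample was 1 mouse, so p-values measure the spread between these samples. The 95% intervals come from the limma fit and rest on the spread between samples. Limits from a count of 0 (3 reads) cover counting error only. How reads were counted, and whether strand was used, was not given in the sources used here.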

Additional observations from a re-analysis of the deposited data

How the results depend on the processing

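Over all 6 libraries 0 of the 9 enzymes passed the adjusted threshold, and this held under every alternative except replicate 3 as a batch term (1, Serpinh1) and replicates 1 and 2 only (4). Of all genes, 11.8% passed it with the batch term and 44.2% with replicates 1 and 2 only, against 0.422% at first. The number past the unadjusted threshold was 1 (Plod2) and became 2 with a mean of at least 10, 0 without the variance trend, 3 with voom, 2 with the replicate block, 3 with the batch term and 8 with replicates 1 and 2 only. The share of all genes past it was 11.9% at first and 14.6%, 11.7%, 23.2%, 20.4%, 29.6% and 51.9% under these settings in turn. Leaving out 1 library gave 0 to 3 members (3 without MSC replicate 3, where 20.2% of all genes passed, and 0 without TAC replicate 1, 2 or 3, where 6.73%, 6.68% and 12.5% did). For the 50 related genes the adjusted count of 1 became 0 with a pseudocount of 0.25, without the trend and with voom, 13 with the batch term and 33 with replicates 1 and 2 only, and ran from 0 to 2 when 1 library was left out. Beside these counts stand 11.8% of all genes with the batch term and 44.2% with replicates 1 and 2 only. Without MSC replicate 3 the count was 2, beside 1.9% of all genes. The unadjusted count of 9 related genes became 14 with voom, 19 with the replicate block, 25 with the batch term and 35 with replicates 1 and 2 only, and ran from 5 to 16 when 1 library was left out. Over all genes the adjusted count was 65, against 229 with the replicate block, and the block changed no other call of a member. Plod1 turned to 0.31 and Lox to -0.23 on the log2 scale with replicates 1 and 2 only, and leaving out 1 library moved Plod1 from -0.70 to 0.29 (without MSC replicate 3) and Lox from -0.058 (without TAC replicate 3) to 0.74. In percentage points, the difference in share (TAC minus MSC) reversed with replicates 1 and 2 only for Loxl2 (0.259) and Loxl3 (1.80). With 1 library left out it ran from -0.57 to 0.298 for P4ha3, above 0 without MSC replicate 1 (0.248) or TAC replicate 3, and from -4.91 to 0.613 for Loxl3, above 0 without MSC replicate 3. The cause of these changes was not tested. Scaling by median ratios or quantiles changed neither the direction of a member nor its side of the threshold. With 3 against 3 samples no share could reach an exact p under 0.1.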
